A study of Homo sapiens with 8 samples.

Results

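The 39 genes described here act in the G2 phase and in mitosis, and were picked by symbol from the 78899 genes of the count table (where a symbol had several identifiers, the one with most counts). They were followed in GFP-labelled microglia, the resident macrophages of the brain, derived from H1, an embryonic stem cell line of human origin, and sorted by fluorescence 2 weeks after plating. The cells came from a tri-culture with other cells that the labels do not name and with no added cytokine (4 libraries), or from a mono-culture that was given a pair of ligands of the CSF1 receptor, M-CSF at 10 ng/mL and IL-34 at 100 ng/mL (4 libraries). Partner cells and added cytokines thus differed at the same time, and their parts cannot be told apart. All 8 libraries come from 1 line, which the labels also describe as induced pluripotent, and each of 4 batches gave 1 library per group. Libraries are numbered below by batch.

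Entry into mitosis depends on CDK1 bound to an A or B type cyclin, and the genes for these proteins and for the machinery they switch on are transcribed mainly in G2 and M. Polo-like and Aurora kinases then build the spindle, the spindle checkpoint holds the anaphase-promoting complex (APC/C) until every kinetochore is attached, and kinesins and actin regulators split the cell. Microglia can divide in the brain and in culture, and signalling through the CSF1 receptor supports their survival and division. In bulk RNA, fewer dividing cells and less of these RNAs per dividing cell cannot be told apart.

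The libraries held 17602010 to 24491765 counts in tri-culture and 17037481 to 33363972 counts in mono-culture. Of 16249 genes that passed a filter on low counts, 2112 were lower and 2261 higher in tri-culture (edgeR quasi-likelihood test, Benjamini-Hochberg adjusted p under 0.05, which is what "rose" and "fell" mean below). With scaling by library size alone these were 1663 lower and 2829 higher. Microglia and macrophage markers (12 of 12 tested, 4 higher and 1 lower) summed to 4733 to 6337 CPM (counts scaled to a library total of 1000000) in tri-culture and 3551 to 4081 CPM in mono-culture. Astrocyte markers (13 of 13 tested, 10 higher and 1 lower) summed to 788 to 891 CPM in tri-culture and 237 to 292 CPM in mono-culture, where AQP4, ALDH1L1 and HEPACAM had no count. Dendritic markers (9 of 12 tested, 6 higher and 1 lower) summed to 387 to 507 CPM in tri-culture and 79.8 to 105.8 CPM in mono-culture. Neuron markers (5 of 12 tested, STMN2 and NEFL higher and SYT1 lower) summed to 13.6 to 35.8 CPM in tri-culture and 23.7 to 41.1 CPM in mono-culture, where SNAP25, STMN2, DCX, SLC17A6 and GAD1 had no count. Neural progenitor markers (5 of 9 tested, SOX2, PAX6, FABP7 and HOPX higher and NES lower) summed to 37.5 to 77.5 CPM in tri-culture and 54.3 to 112 CPM in mono-culture, where SOX2, HES5 and EOMES had no count; EOMES had none in tri-culture either. NES, at 30.0 ± 6.49 CPM in tri-culture and 89.2 ± 24.6 CPM in mono-culture, held most of the mono-culture sum, while SOX2 was at 14.7 ± 6.25 CPM and FABP7 at 13.1 ± 4.46 CPM in tri-culture. Of the neuron markers too low to test, DCX held 113 counts in tri-culture and 0 in mono-culture, and NEFM 105 in tri-culture and 10 in mono-culture. Mesenchymal markers (4 of 8 tested, 1 higher) summed to 18.3 to 393 CPM in tri-culture and 15.5 to 34.6 CPM in mono-culture. Their sum was 364, 18.3, 393 and 147 CPM in tri-culture libraries 1 to 4, and it includes the genes not tested. Pluripotency markers (1 of 6 tested, and that 1 lower) summed to 16.5 to 20.9 CPM in tri-culture and 20.0 to 31.1 CPM in mono-culture. Nearly all of this was LIN28B, the gene tested, with 4109 counts over all libraries. None of the others held more than 22 (POU5F1). The part of these cells' RNA in the results below was not tested.

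The mitotic genes were lower in tri-culture as a group. Of the 39, 37 were tested, 26 fell and 11 did not pass the test, where 13.0% of all genes tested fell. None of them rose, by edgeR, DESeq2 or limma-trend, also at an unadjusted p under 0.05. Of the members, 9 fell with an estimated ratio under 0.5, as did 5.01% of all genes tested. The test was against no change, not against a ratio of 0.5. TOP2A (0.4995), KIF23 (0.497) and BIRC5 (0.497) lay at that line. All 37 had a negative log2 fold change, against 47.9% of all genes tested, and their median was -0.79 (a ratio of 0.578, tri-culture over mono-culture), with the middle of the list between -0.94 and -0.55 and a range of -1.53 to -0.24. The median of all genes tested was 0.02. The members had been chosen with earlier results of these data known, so these counts describe the list and no test was made of it. With the batch as a block 29 members fell (14.5% of all genes tested), with no filter 28 (5.73%) and with DESeq2 27 (9.73%).

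The summed level of the 37 genes was 751, 874, 761 and 590.3 CPM in tri-culture libraries 1 to 4, against 1144, 1312, 1464 and 1335 CPM in mono-culture libraries 1 to 4. The groups did not overlap. The means were 744 ± 117 CPM in tri-culture and 1313 ± 131 CPM in mono-culture (SD, n = 4 each). MKI67 and TOP2A, the members with most counts, made up 27.6% of this sum in tri-culture and 35.1% in mono-culture. Without them the sum was 540 ± 101 CPM in tri-culture and 852 ± 90.0 CPM in mono-culture. For 16 members every tri-culture library lay below every mono-culture library, which held for 10.8% of all genes tested, and for the other 21 the groups overlapped.

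**Figure D1:**
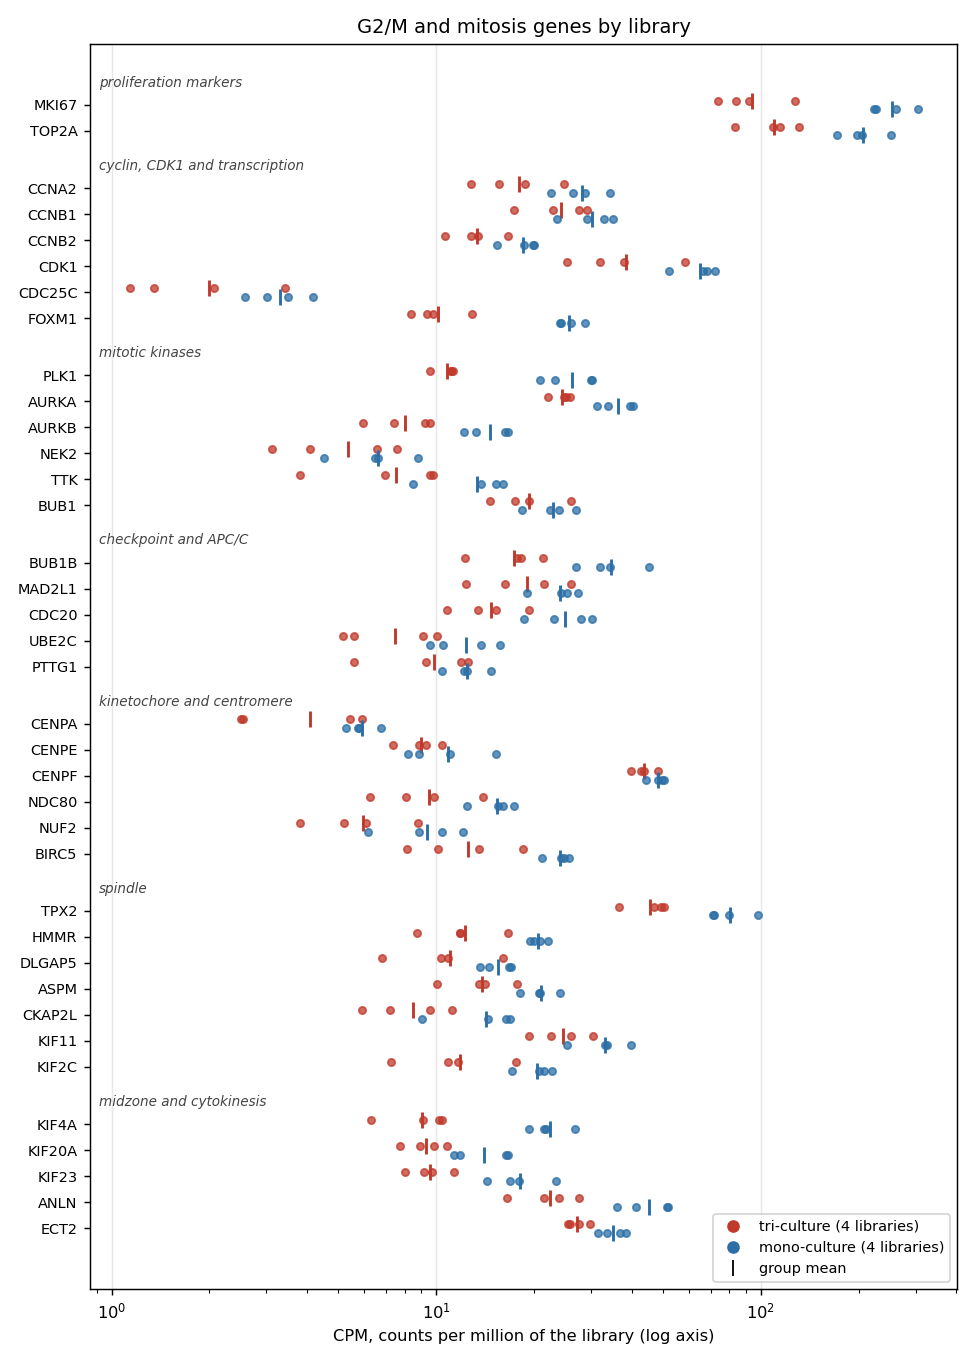
Level of each tested G2/M and mitosis gene in every library, in CPM on a log axis, grouped by role. Red points are the 4 tri-culture libraries, blue points the 4 mono-culture libraries, and ticks the group means; the red and blue points are parted for MKI67, FOXM1, PLK1 and KIF4A and mixed for BUB1, CENPE and CENPF.

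**Figure D2:**
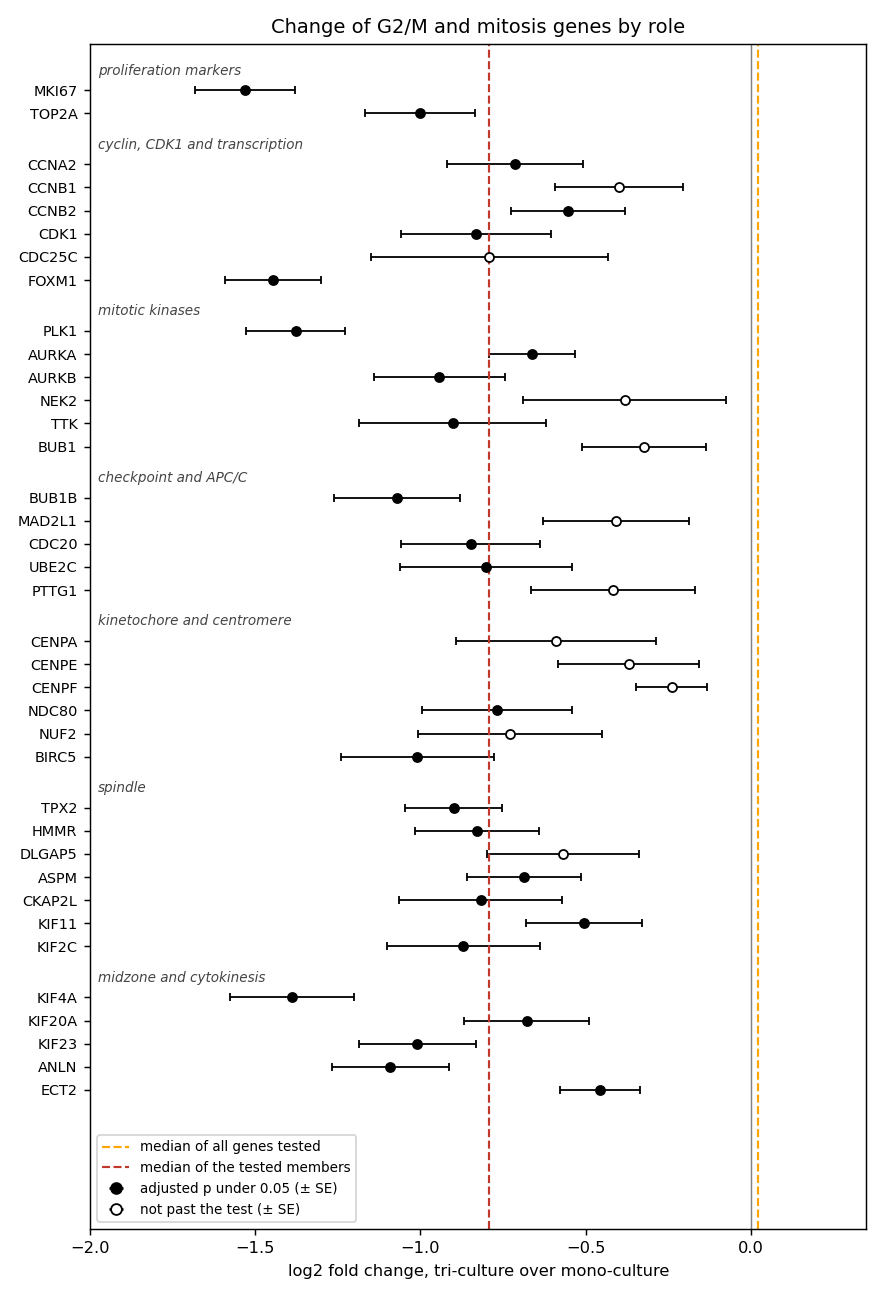
Log2 fold change of each tested member, tri-culture over mono-culture, with its standard error. Filled points are the 26 genes that passed the edgeR test and open points the 11 that did not; every point lies left of 0, and the dashed lines mark the medians of the members (-0.79) and of all genes tested (0.02).

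Many genes of this group carry a pair of short promoter elements that are textbook features of G2/M transcription: the cell cycle genes homology region (CHR), bound by the DREAM and MuvB complexes, and the CCAAT box, bound by NF-Y. RefSeq promoters on GRCh38.p14, 250 bases before to 50 bases after the gene start, were at hand for 33 of the 39 genes, all but FOXM1, AURKA, TTK, UBE2C, BIRC5 and TPX2. They were searched on both strands for TTTGAA or TTCGAA (CHR) and for CCAAT. No other sequence was searched for as a CHR. The promoters below were chosen to show both elements in genes that fell strongly (MKI67, PLK1, KIF4A) and in genes that fell less (CDC20, HMMR, CCNB2). KIF20A and CCNB1 were chosen to show CCAAT matches without TTTGAA or TTCGAA. Each is the 120 bases before the start, 5′ to 3′ on the gene's strand, with CHR and CCAAT matches in capitals (on the other strand TTTGAA reads TTCAAA, and CCAAT reads ATTGG).
MKI67: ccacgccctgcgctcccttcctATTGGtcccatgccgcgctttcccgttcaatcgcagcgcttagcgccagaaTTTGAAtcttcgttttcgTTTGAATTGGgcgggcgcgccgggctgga
PLK1: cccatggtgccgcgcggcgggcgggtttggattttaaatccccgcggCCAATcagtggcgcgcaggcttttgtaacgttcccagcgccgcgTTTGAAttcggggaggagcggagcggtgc
KIF4A: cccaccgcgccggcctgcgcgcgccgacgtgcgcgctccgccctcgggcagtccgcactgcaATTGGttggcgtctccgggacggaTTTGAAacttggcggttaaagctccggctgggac
CDC20: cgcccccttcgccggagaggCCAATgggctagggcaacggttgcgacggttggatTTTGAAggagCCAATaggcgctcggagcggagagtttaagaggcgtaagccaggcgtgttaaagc
HMMR: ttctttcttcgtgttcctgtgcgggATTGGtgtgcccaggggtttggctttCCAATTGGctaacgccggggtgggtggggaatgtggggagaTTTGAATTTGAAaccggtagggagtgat
CCNB2: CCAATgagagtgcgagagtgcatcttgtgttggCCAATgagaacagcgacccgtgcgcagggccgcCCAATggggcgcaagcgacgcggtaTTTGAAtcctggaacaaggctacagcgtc
KIF20A: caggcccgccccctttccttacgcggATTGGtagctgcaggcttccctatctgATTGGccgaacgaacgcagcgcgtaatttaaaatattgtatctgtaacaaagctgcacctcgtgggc
CCNB1: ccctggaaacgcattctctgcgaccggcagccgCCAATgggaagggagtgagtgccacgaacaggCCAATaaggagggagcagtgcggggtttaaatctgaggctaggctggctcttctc

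The MKI67 stretch is chr10:128126424-128126543 on the minus strand, and the others are on the plus strand. They are chr16:23678769-23678888 for PLK1, chrX:70289984-70290103 for KIF4A, chr1:43358861-43358980 for CDC20 and chr5:163460512-163460631 for HMMR. CCNB2 is at chr15:59105026-59105145, KIF20A at chr5:138178992-138179111 and CCNB1 at chr5:69167030-69167149. Distances are from the RefSeq start. In the GENCODE 29 annotation PLK1, HMMR, KIF20A and CCNB1 begin earlier, at 23677656, 163460203, 138178719 and 69167010, so their stretches lie inside these genes. The single CHR match of the stretch began 29 bases before the start in PLK1, 34 in KIF4A, 65 in CDC20 and 29 in CCNB2. MKI67 had a pair of them at 47 and 29 bases, the second of which shares bases with a CCAAT match, and HMMR had a pair at 28 and 22 bases, next to each other. In KIF20A and CCNB1 the CCAAT matches lay 94 and 67 bases and 87 and 55 bases before the start.

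Of the 33 promoters, 24 held a CHR match (72.7%), against 16.4% of all 35116 promoters of the same length and 11.6% of the promoters of tested genes. A CCAAT match was present in 26 of the 33 (78.8%), against 34.6% of all promoters. Both were present in 20 (60.6%), against 6.38% of all promoters. A CHR match within 60 bases before the start was found in 13 of the 33 (39.4%) and in 3.17% of all promoters. Of the 34 CHR matches of members, 1 shared bases with a CCAAT match, that of MKI67. CDC25C, KIF2C and CENPE held neither sequence in this window.

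The fold changes of members with and without a CHR match overlapped. Of 22 tested members with a match, 16 fell, and their log2 fold changes ran from -1.53 to -0.24 with a median of -0.79. Of 9 without one, 4 fell, and theirs ran from -0.94 to -0.37 with a median of -0.68. MKI67 at -1.53 and CENPF at -0.24, the ends of the list, both held both elements. The CHR matches of MKI67 began 47 and 29 bases before the start, and that of CENPF at base 41 counted from the start. Where in the window a match lay was not part of this comparison. A match is a description of the letters, not a bound site or a cause.

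**Figure D3:**
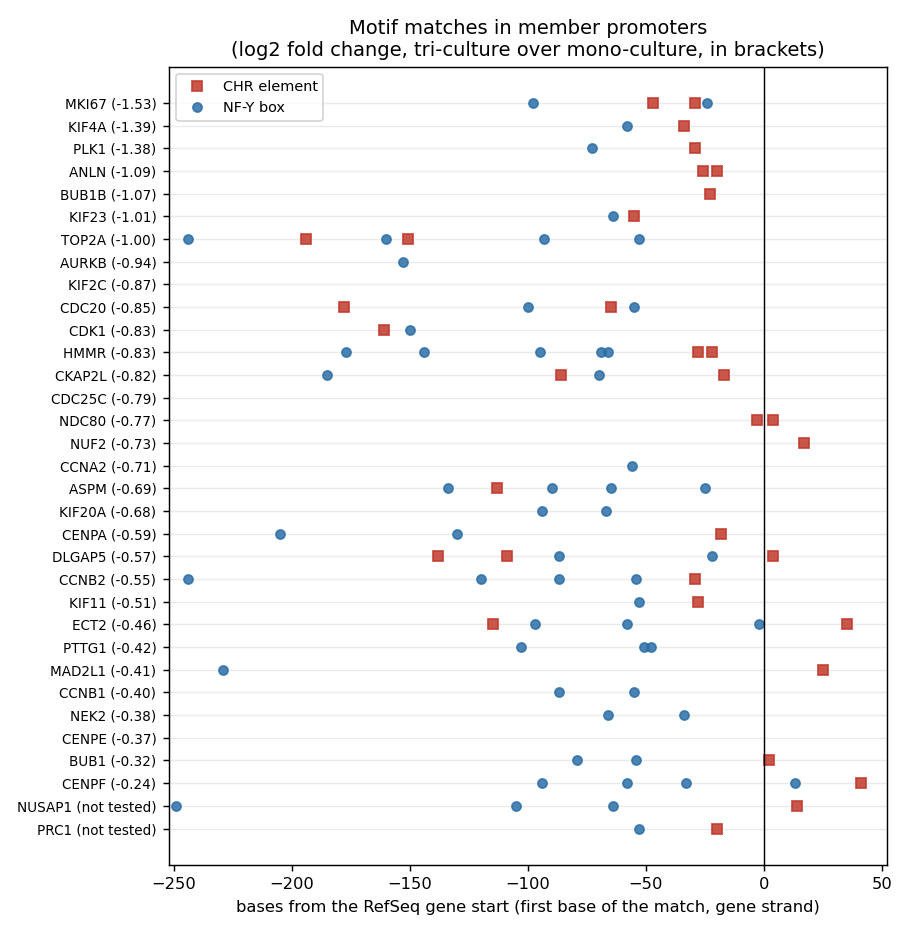
Position of CHR (red squares) and CCAAT (blue circles, NF-Y box) matches in 33 member promoters, in bases from the RefSeq gene start, with members ordered by log2 fold change (tri-culture over mono-culture, in brackets). Matches of both kinds together lie mostly in the 100 bases before the start. The CHR matches of MKI67, KIF4A and PLK1, at the top of the list, lie there. Among the last tested members, those of MAD2L1, BUB1 and CENPF lie after the start (at 25, 2 and 41), and those of ECT2 at -115 and 35. Other members differ: those of TOP2A lie at -194 and -151 and that of CDK1 at -161. Further down the list, those of CENPA, CCNB2 and KIF11 lie at -18, -29 and -28. PTTG1, CCNB1, NEK2 and CENPE, also among the last, have no CHR match.

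Both proliferation markers fell. MKI67 encodes a protein that coats mitotic chromosomes and is the usual tissue marker of cycling cells (chr10:128096659-128126385, minus strand, GENCODE 29 on GRCh38). It had 73.9, 83.9, 127 and 91.7 CPM in tri-culture libraries 1 to 4, against 224, 226, 305 and 262 CPM in mono-culture libraries 1 to 4. Tri-culture library 3 was the highest of its group and mono-culture library 3 of its own, and the groups were far from overlapping. Its log2 fold change of -1.53 ± 0.15 (SE) was the lowest of the members (ratio 0.346, edgeR adjusted p = 9.18e-06). TOP2A, the topoisomerase that untangles sister chromatids, had 115, 131, 109 and 83.1 CPM in tri-culture libraries 1 to 4, against 171, 205, 197 and 253 CPM in mono-culture libraries 1 to 4. Its groups were apart too, with tri-culture library 4 lowest and mono-culture library 4 highest of all 8, and it fell by 1.00 ± 0.17 on the log2 scale (edgeR adjusted p = 0.000521).

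Of the cyclin, CDK1 and transcription genes 4 of 6 fell, at a median log2 fold change of -0.75. FOXM1, the forkhead factor that drives G2/M transcription (chr12:2857681-2877155, minus strand), had 8.34, 9.80, 12.9 and 9.37 CPM in tri-culture libraries 1 to 4, against 24.1, 24.2, 28.7 and 25.9 CPM in mono-culture libraries 1 to 4. The groups were widely apart, with library 3 highest in both. It fell by 1.45 ± 0.14 on the log2 scale (ratio 0.367, edgeR adjusted p = 1.01e-05). Of its exon bases 15.9% lie under ITFG2 on the other strand, which held 2238 counts in tri-culture and 2439 in mono-culture.

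CDK1, the kinase that starts mitosis, had 37.8, 58.4, 32.0 and 25.3 CPM in tri-culture libraries 1 to 4, against 52.1, 68.0, 66.5 and 72.4 CPM in mono-culture libraries 1 to 4. Tri-culture library 2 exceeded mono-culture library 1, so the groups overlapped. CDK1 fell by 0.83 ± 0.23 on the log2 scale (edgeR adjusted p = 0.0151, and 0.0503 without tri-culture library 3). CCNA2, the cyclin of S phase and G2, had 18.8, 24.8, 15.6 and 12.8 CPM in tri-culture libraries 1 to 4, against 22.6, 26.5, 34.3 and 28.8 CPM in mono-culture libraries 1 to 4. Again tri-culture library 2 reached into the mono-culture range. It fell by 0.71 ± 0.21 on the log2 scale (edgeR adjusted p = 0.0198, 0.0559 without mono-culture library 3 and 0.0551 without tri-culture library 3).

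The B cyclins, the partners of CDK1 in mitosis, had the fold changes nearest to 0 of these 6 genes. CCNB2 averaged 13.4 ± 2.50 CPM in tri-culture and 18.5 ± 2.14 CPM in mono-culture and fell by 0.55 ± 0.17 on the log2 scale (edgeR adjusted p = 0.0299). It no longer passed without mono-culture library 1, 2 or 3 or tri-culture library 3 or 4 (edgeR adjusted p 0.0625 to 0.0853). CCNB1 had 27.5, 29.2, 22.9 and 17.3 CPM in tri-culture libraries 1 to 4, against 29.1, 35.1, 32.8 and 23.5 CPM in mono-culture libraries 1 to 4. Each tri-culture library was below the mono-culture library of its own batch while the groups overlapped. At a log2 fold change of -0.40 ± 0.19 CCNB1 did not pass the test (edgeR adjusted p = 0.154), but did with the batch as a block (edgeR adjusted p = 0.0272). CDC25C, the phosphatase that activates CDK1, had the fewest counts of the tested members, at 1.99 ± 1.04 CPM in tri-culture and 3.31 ± 0.68 CPM in mono-culture. Its log2 fold change of -0.79 ± 0.36 did not pass the test (edgeR adjusted p = 0.13, and 0.0204 without tri-culture library 2).

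Of the mitotic kinases 4 of 6 fell, at a median log2 fold change of -0.78. PLK1, the polo-like kinase of mitotic entry and spindle assembly (chr16:23677656-23690367, plus strand), had 9.55, 11.1, 11.1 and 11.3 CPM in tri-culture libraries 1 to 4, against 23.2, 30.1, 30.3 and 21.0 CPM in mono-culture libraries 1 to 4. The tri-culture libraries lay close together, all of them well below the lowest mono-culture library. PLK1 fell by 1.38 ± 0.15 on the log2 scale (ratio 0.385, edgeR adjusted p = 1.96e-05), and its coefficient of variation was 7.59% in tri-culture and 18.2% in mono-culture.

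The Aurora kinases both fell without overlap of the groups. AURKA, which works at the spindle poles, had 25.1, 25.8, 24.8 and 22.0 CPM in tri-culture libraries 1 to 4, against 31.2, 40.5, 39.6 and 33.9 CPM in mono-culture libraries 1 to 4. It fell by 0.66 ± 0.13 on the log2 scale (edgeR adjusted p = 0.00192). AURKB, the kinase of the chromosomal passenger complex, had 9.24, 9.55, 7.41 and 5.97 CPM in tri-culture libraries 1 to 4, against 12.2, 16.7, 16.3 and 13.3 CPM in mono-culture libraries 1 to 4, and fell by 0.94 ± 0.20 on the log2 scale (edgeR adjusted p = 0.00305). Within a library, a ratio of CPM does not depend on scaling. AURKA over AURKB was 2.70 to 3.70 in tri-culture and 2.43 to 2.56 in mono-culture. This ratio and those below were chosen after their values were seen and were not tested. For CCNB1 over CCNB2 the groups overlapped, at 1.63 to 2.04 in tri-culture and 1.52 to 1.76 in mono-culture. They also overlapped for NDC80 over NUF2, at 1.55 to 1.64 in tri-culture and 1.28 to 2.02 in mono-culture.

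TTK, a checkpoint kinase at unattached kinetochores, averaged 7.53 ± 2.80 CPM in tri-culture and 13.4 ± 3.42 CPM in mono-culture, with overlapping groups. It fell by 0.90 ± 0.28 on the log2 scale (edgeR adjusted p = 0.0309), but not without mono-culture library 2, 3 or 4 or tri-culture library 1 (edgeR adjusted p 0.052 to 0.0866). NEK2, a kinase of centrosome separation, averaged 5.34 ± 2.08 CPM in tri-culture and 6.60 ± 1.74 CPM in mono-culture and did not pass the test (log2 fold change -0.38 ± 0.31, edgeR adjusted p = 0.413). BUB1, the checkpoint kinase that marks the inner centromere, had 19.4, 26.0, 17.5 and 14.7 CPM in tri-culture libraries 1 to 4, against 18.4, 22.4, 27.0 and 23.9 CPM in mono-culture libraries 1 to 4. It was higher in tri-culture in batches 1 and 2 and lower in batches 3 and 4. Its log2 fold change of -0.32 ± 0.19 did not pass the test (edgeR adjusted p = 0.243, and 0.0414 without tri-culture library 2).

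Of the checkpoint and APC/C genes 3 of 5 fell, at a median log2 fold change of -0.80. BUB1B, the checkpoint protein that holds back CDC20, had 18.2, 21.3, 17.8 and 12.3 CPM in tri-culture libraries 1 to 4, against 31.9, 27.0, 45.1 and 34.4 CPM in mono-culture libraries 1 to 4. The groups were apart, with mono-culture library 3 highest. BUB1B fell by 1.07 ± 0.19 on the log2 scale (edgeR adjusted p = 0.00095). Its paralog BUB1 did not pass the test, and the ratio of CPM of BUB1 over BUB1B was 1.06, 1.22, 0.981 and 1.19 in tri-culture libraries 1 to 4, against 0.576, 0.831, 0.599 and 0.696 in mono-culture libraries 1 to 4. Every tri-culture ratio was above every mono-culture ratio.

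CDC20, the APC/C activator, averaged 14.7 ± 3.6 CPM in tri-culture and 25 ± 5.14 CPM in mono-culture, and fell by 0.85 ± 0.21 on the log2 scale (edgeR adjusted p = 0.0085). UBE2C, the ubiquitin-conjugating enzyme of the APC/C, averaged 7.47 ± 2.48 CPM in tri-culture and 12.4 ± 2.85 CPM in mono-culture, and fell by 0.80 ± 0.26 on the log2 scale (edgeR adjusted p = 0.0366). UBE2C no longer passed without mono-culture library 2 or 3 or tri-culture library 3 or 4 (edgeR adjusted p 0.073 to 0.124). In both genes the groups overlapped. PTTG1, securin, the APC/C substrate that guards separase, averaged 9.84 ± 3.18 CPM in tri-culture and 12.5 ± 1.80 CPM in mono-culture and did not pass the test (log2 fold change -0.42 ± 0.25, edgeR adjusted p = 0.253). MAD2L1, the checkpoint protein that binds CDC20, had 21.5, 26.0, 16.3 and 12.3 CPM in tri-culture libraries 1 to 4, against 19.1, 25.3, 27.4 and 24.2 CPM in mono-culture libraries 1 to 4. Like BUB1 it was higher in tri-culture in batches 1 and 2 and lower in batches 3 and 4 (log2 fold change -0.41 ± 0.22, edgeR adjusted p = 0.207).

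The kinetochore and centromere genes had the highest median, -0.66, and 2 of 6 fell. BIRC5, the survivin subunit of the passenger complex, had 13.6, 18.5, 10.1 and 8.12 CPM in tri-culture libraries 1 to 4, against 24.3, 24.8, 25.7 and 21.1 CPM in mono-culture libraries 1 to 4. The mono-culture libraries lay close together, the tri-culture libraries were spread below them, and BIRC5 fell by 1.01 ± 0.23 on the log2 scale (edgeR adjusted p = 0.00529). NDC80, which binds spindle microtubules, averaged 9.51 ± 3.28 CPM in tri-culture and 15.4 ± 2.08 CPM in mono-culture, and fell by 0.77 ± 0.23 on the log2 scale (edgeR adjusted p = 0.0229). NDC80 no longer passed without mono-culture library 2, 3 or 4 (edgeR adjusted p 0.0537 to 0.059).

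NUF2, the partner of NDC80 in the same complex, averaged 5.96 ± 2.1 CPM in tri-culture and 9.39 ± 2.53 CPM in mono-culture. Its log2 fold change of -0.73 ± 0.28 was close to that of NDC80 and did not pass the test (edgeR adjusted p = 0.0712), but did with the batch as a block (0.0185), without tri-culture library 2 (0.016) and without mono-culture library 1 (0.0383). CENPA, the centromeric histone, averaged 4.10 ± 1.83 CPM in tri-culture and 5.89 ± 0.61 CPM in mono-culture (log2 fold change -0.59 ± 0.30, edgeR adjusted p = 0.183). CENPE, the kinetochore kinesin, averaged 8.98 ± 1.26 CPM in tri-culture and 10.9 ± 3.20 CPM in mono-culture (log2 fold change -0.37 ± 0.21, edgeR adjusted p = 0.24). Neither passed the test.

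CENPF, a large kinetochore protein, had 43.7, 39.9, 48.1 and 42.7 CPM in tri-culture libraries 1 to 4, against 48.2, 49.8, 50.3 and 44.1 CPM in mono-culture libraries 1 to 4. It was lower in tri-culture in every batch, by little, and the groups overlapped. Its log2 fold change of -0.24 ± 0.11 was the highest of the members and did not pass the test (edgeR adjusted p = 0.12). CENPF over MKI67, the ends of the list, had a ratio of CPM of 0.378 to 0.591 in tri-culture and 0.165 to 0.221 in mono-culture. Both genes were taken by their fold change in these same libraries, so this ratio adds no separate result.

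Of the spindle genes 6 of 7 fell, at a median log2 fold change of -0.82. TPX2, which activates AURKA and nucleates spindle microtubules, had 49.2, 50.3, 46.8 and 36.5 CPM in tri-culture libraries 1 to 4, against 71.8, 80.1, 98.1 and 71.4 CPM in mono-culture libraries 1 to 4. The groups were apart, and it fell by 0.90 ± 0.15 on the log2 scale (edgeR adjusted p = 0.000448). HMMR, a spindle-pole adaptor and hyaluronan receptor, averaged 12.3 ± 3.28 CPM in tri-culture and 20.6 ± 1.2 CPM in mono-culture and fell by 0.83 ± 0.19 on the log2 scale (edgeR adjusted p = 0.005). ASPM, a protein of the spindle poles, averaged 13.9 ± 3.13 CPM in tri-culture and 21.0 ± 2.40 CPM in mono-culture and fell by 0.69 ± 0.17 on the log2 scale (edgeR adjusted p = 0.00945). Neither gene's groups overlapped.

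Among the other spindle genes the groups overlapped. KIF2C, a kinesin that takes microtubules apart, averaged 11.9 ± 4.26 CPM in tri-culture and 20.5 ± 2.38 CPM in mono-culture and fell by 0.87 ± 0.23 on the log2 scale (edgeR adjusted p = 0.0133). CKAP2L, a spindle-associated protein, averaged 8.46 ± 2.36 CPM in tri-culture and 14.2 ± 3.61 CPM in mono-culture and fell by 0.82 ± 0.25 on the log2 scale (edgeR adjusted p = 0.0255). KIF11, the kinesin that pushes the spindle poles apart, averaged 24.6 ± 4.79 CPM in tri-culture and 33 ± 5.95 CPM in mono-culture and fell by 0.51 ± 0.17 on the log2 scale (edgeR adjusted p = 0.0492). Neither of the last pair passed without mono-culture library 2, 3 or 4 or tri-culture library 3 or 4, at an edgeR adjusted p of 0.0552 to 0.0833 for CKAP2L and 0.0953 to 0.123 for KIF11. KIF11 also missed the threshold with scaling by library size (0.0815) or upper quartile (0.0773). DLGAP5, which stabilises kinetochore fibres, averaged 11.0 ± 3.81 CPM in tri-culture and 15.5 ± 1.65 CPM in mono-culture. At a log2 fold change of -0.57 ± 0.23 DLGAP5 did not pass the test (edgeR adjusted p = 0.088), but did with the batch as a block (0.0171) and without tri-culture library 2 (0.00934).

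All 5 tested genes of the spindle midzone and cytokinesis fell, at a median log2 fold change of -1.01, and in none of them did the groups overlap. KIF4A, the chromosome-bound kinesin that sets the length of the midzone (chrX:70290090-70420832, plus strand), had 10.4, 10.2, 9.14 and 6.31 CPM in tri-culture libraries 1 to 4, against 21.8, 21.5, 26.8 and 19.3 CPM in mono-culture libraries 1 to 4. Every tri-culture library was well below the lowest mono-culture library. KIF4A fell by 1.39 ± 0.19 on the log2 scale (ratio 0.382, edgeR adjusted p = 0.000113). ANLN, anillin, the scaffold of the contractile ring, had 23.9, 27.6, 21.5 and 16.5 CPM in tri-culture libraries 1 to 4, against 36.0, 41.3, 51.8 and 51.3 CPM in mono-culture libraries 1 to 4. The gap was wider in libraries 3 and 4 than in libraries 1 and 2. ANLN fell by 1.09 ± 0.18 on the log2 scale (edgeR adjusted p = 0.000468).

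KIF23, the kinesin of the centralspindlin complex, averaged 9.55 ± 1.37 CPM in tri-culture and 18.2 ± 3.86 CPM in mono-culture and fell by 1.01 ± 0.18 on the log2 scale (edgeR adjusted p = 0.000838). KIF20A, the kinesin that carries the passenger complex to the midzone, averaged 9.31 ± 1.30 CPM in tri-culture and 14.0 ± 2.84 CPM in mono-culture and fell by 0.68 ± 0.19 on the log2 scale (edgeR adjusted p = 0.0162, and 0.0584 without mono-culture library 2). ECT2, the exchange factor that switches on RhoA at the cleavage site, averaged 27.1 ± 1.97 CPM in tri-culture and 35.1 ± 3.13 CPM in mono-culture and fell by 0.46 ± 0.12 on the log2 scale (edgeR adjusted p = 0.0126). ECT2 had a small change and little spread, with a coefficient of variation of 7.27% in tri-culture and 8.94% in mono-culture.

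NUSAP1 and PRC1, which bundle spindle and midzone microtubules, were the members that did not pass the filter on low counts. NUSAP1 held 0, 4, 5 and 2 counts in tri-culture libraries 1 to 4, against 0, 4, 22 and 3 counts in mono-culture libraries 1 to 4. PRC1 held 8, 9, 2 and 10 counts in tri-culture libraries 1 to 4, against 10, 6, 14 and 3 counts in mono-culture libraries 1 to 4. In GENCODE 29, 62.2% of the exon bases of NUSAP1 lie under AC087721.2 on the same strand and 57.6% of those of PRC1 under AC068831.7. Among the other members the largest such overlap was 10.2% (BUB1B). How the authors' counting treated reads over both genes was not stated in the sources used, so the low counts of NUSAP1 and PRC1 are uncertain as levels.

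The libraries of a group differed among themselves in a common way. Tri-culture library 2 was the highest of its group for 28 of the 37 members and tri-culture library 4 the lowest for 31. MKI67, FOXM1, CENPE, CENPF and ASPM were highest in tri-culture library 3 instead, and PLK1 in tri-culture library 4. In mono-culture, library 3 was highest for 21 members and library 1 lowest for 20. The order of libraries was not counted over all genes tested, so it is not shown to be particular to the members. The median coefficient of variation over the members was 24.5% in tri-culture and 15.6% in mono-culture.

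The difference between the cultures was not equally large in the 4 batches. Within a batch, the median log2 ratio over the members (CPM + 0.5, tri-culture over mono-culture) was -0.38 in batch 1, -0.42 in batch 2, -0.85 in batch 3 and -1.06 in batch 4, where that of all genes tested was 0.07, 0.11, 0.07 and 0.17. Of the 37 members, 31, 33, 36 and 37 were lower in tri-culture in batches 1 to 4. The members lower in all 4 batches numbered 29, where 16.8% of all genes tested were. MKI67 did not follow the split of the batches: its log2 ratio was -1.59, -1.42, -1.26 and -1.51 in batches 1 to 4. FOXM1 was alike, at -1.48, -1.26, -1.13 and -1.42. CDK1, at -0.46, -0.22, -1.04 and -1.50, and ANLN, at -0.58, -0.57, -1.25 and -1.61, had the larger differences in batches 3 and 4.

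In fits on part of the batches, chosen after seeing the data, 11 of the 37 members fell in batches 1 and 2 alone (9.61% of all genes tested) and 32 in batches 3 and 4 alone (17.3% of all genes tested), with median log2 fold changes of -0.53 and -1.17. BUB1 was at 0.07 and MAD2L1 at 0.02 in the fit on batches 1 and 2, neither past the test. Each such fit had 2 libraries per group. The second principal component of all genes (15% of the variance) also parted batches 1 and 2 from batches 3 and 4. The cause of the split was not tested.

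**Figure D4:**
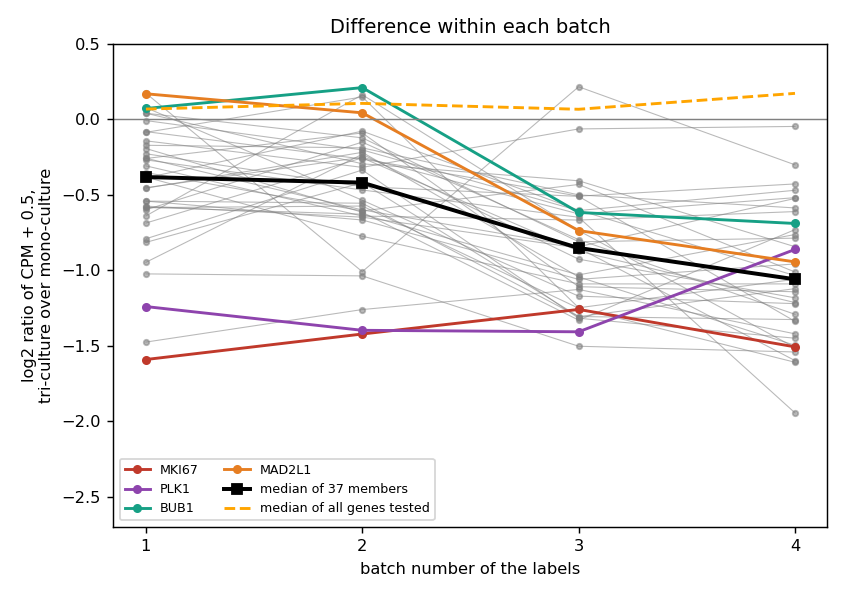
Log2 ratio of CPM + 0.5, tri-culture over mono-culture, within each of the 4 batches. Grey lines join the values of 1 member, coloured lines show MKI67, PLK1, BUB1 and MAD2L1, black squares the median of the 37 members (-0.38, -0.42, -0.85 and -1.06) and the dashed line the median of all genes tested; batches have no order.

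Levels of different genes were compared on the authors' deposited signal table, whose values are per transcript length. The median of the 37 members was 11.4 in tri-culture and 19.5 in mono-culture, with a range over genes of 2.1 to 60.6 in tri-culture and 3.69 to 120.4 in mono-culture. TOP2A was highest in both, at 60.6 ± 13.7 in tri-culture and 120.4 ± 18.6 in mono-culture, and TPX2 was second, at 41.7 ± 7.66 in tri-culture and 77.2 ± 9.95 in mono-culture (SD, n = 4 each). CDC25C, CENPE and ASPM were the lowest of the tested members in both. MKI67 and CCNB1 stood at places 4 and 3 in tri-culture and at places 3 and 6 in mono-culture, with signals of 25.5 ± 5.71 and 31.4 ± 8.34 in tri-culture and 73.1 ± 8.65 and 41.0 ± 6.97 in mono-culture. In tri-culture the spread of both over libraries overlapped, so that order is not beyond their spread.

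Beyond the members, a wider list of 100 mitosis genes was described: of 99 tested, 45 fell and 2 rose (13.0% and 13.9% of all genes tested), at a median log2 fold change of -0.45. Those with the smallest adjusted p fell. PKMYT1, the kinase that inhibits CDK1, averaged 2.98 ± 0.75 CPM in tri-culture and 9.83 ± 1.81 CPM in mono-culture (log2 fold change -1.82, edgeR adjusted p = 3.93e-05). MYBL2, the transcription factor that works with FOXM1, averaged 16.4 ± 2.07 CPM in tri-culture and 41.8 ± 7.80 CPM in mono-culture (log2 fold change -1.43, edgeR adjusted p = 2.27e-05). CDC25B, another phosphatase of CDK1, fell by 1.06, ESPL1, separase, by 1.16, KIF18B, a kinesin of spindle microtubule ends, by 1.37 and TUBB4B, a beta-tubulin, by 0.79 on the log2 scale.

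PSRC1, a spindle protein, was among the genes of the wider list that rose. It averaged 12.2 ± 1.90 CPM in tri-culture and 7.61 ± 1.66 CPM in mono-culture (log2 fold change 0.56, edgeR adjusted p = 0.0442). PSRC1 was higher in tri-culture in 4 of 4 batches, but missed the threshold without mono-culture library 3 or 4 or tri-culture library 2, 3 or 4 (edgeR adjusted p 0.0558 to 0.138). Of the 11 core subunits of the APC/C on this list, a subset named after its values were seen, none fell or rose (median log2 fold change -0.06), where 26.9% of all genes tested did either. The same 0 of 11 was found at an unadjusted p under 0.05, and by DESeq2 and limma-trend. Of the 8 condensin subunits on it, also named after their values were seen, 4 fell, where 13.0% of all genes tested did.

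The G1/S list had 34 tested genes, of which 21 fell and 0 rose (1 higher at an unadjusted p under 0.05, 1 by DESeq2 and 0 by limma-trend), where 13.0% of all genes tested fell and 13.9% rose, at a median log2 fold change of -0.59. RRM2, a subunit of ribonucleotide reductase, averaged 31.3 ± 8.66 CPM in tri-culture and 93.0 ± 18.1 CPM in mono-culture (log2 fold change -1.65, edgeR adjusted p = 7.04e-05). CCND1, the D type cyclin of G1, averaged 55.6 ± 11.3 CPM in tri-culture and 150.1 ± 18.1 CPM in mono-culture (log2 fold change -1.54, edgeR adjusted p = 4.77e-06). E2F1, the transcription factor of S phase entry, fell by 1.62 and CDT1, a replication licensing factor, by 1.63 on the log2 scale. A CHR match was present in 2 of 27 G1/S promoters (7.41%), in 45 of 84 promoters of the wider mitosis list (53.6%) and in 72.7% of those of the members.

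The list of DREAM and quiescence genes, which holds CDK inhibitors and pocket proteins, had calls in both directions: of 22 tested genes 4 fell and 4 rose (18.2% each way, near the 13.0% lower and 13.9% higher of all genes tested), at a median log2 fold change of -0.12. CDKN2B, an inhibitor of the G1 kinases, averaged 6.03 ± 2.26 CPM in tri-culture and 42.2 ± 7.92 CPM in mono-culture (log2 fold change -2.88, edgeR adjusted p = 2.34e-06). CDKN1A, the inhibitor induced by p53, averaged 234 ± 59.8 CPM in tri-culture and 472 ± 96.0 CPM in mono-culture (log2 fold change -1.10, edgeR adjusted p = 0.00189). CDKN2A fell by 1.64 and CDKN2C by 0.69 on the log2 scale. These 4 inhibitor genes fell in the same comparison as the mitotic genes, and no link between them was tested.

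The genes of this list that rose included other inhibitors. CDKN1B, the inhibitor of CDK2 that accumulates in resting cells, averaged 74.0 ± 8.44 CPM in tri-culture and 47.7 ± 4.92 CPM in mono-culture (log2 fold change 0.54, edgeR adjusted p = 0.00776). CDKN1C, its relative, averaged 10.7 ± 2.82 CPM in tri-culture and 4.55 ± 0.84 CPM in mono-culture (log2 fold change 1.15, edgeR adjusted p = 0.00303). RBL2, a pocket protein of the DREAM complex, averaged 76.2 ± 5.81 CPM in tri-culture and 48.6 ± 8.76 CPM in mono-culture (log2 fold change 0.56, edgeR adjusted p = 0.0037). E2F5, a repressor that binds pocket proteins, rose by 0.77 on the log2 scale (edgeR adjusted p = 0.0426), but passed only without tri-culture library 1 or 2 of the fits that leave out 1 library (0.0572 to 0.142 in the others) and not with the batch as a block (0.0581).

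**Figure D5:**
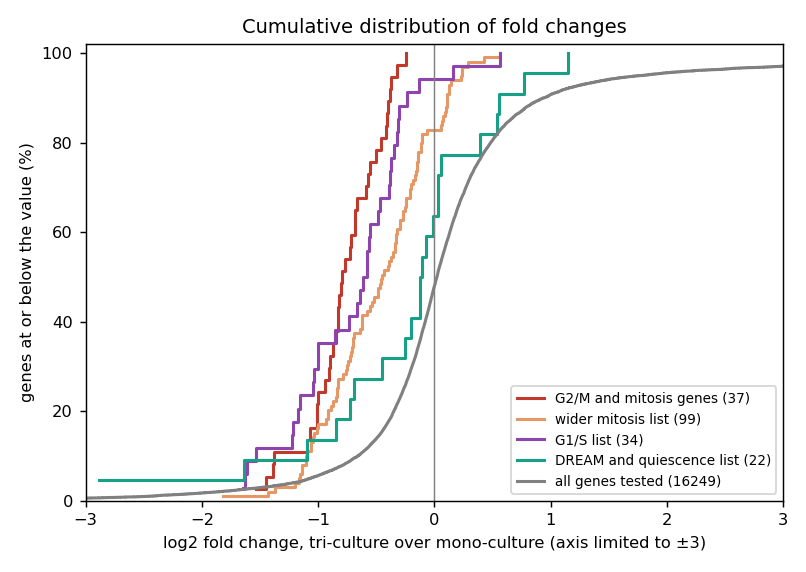
Cumulative distribution of log2 fold changes, tri-culture over mono-culture, for the 37 tested G2/M and mitosis genes, the 99 of the wider mitosis list, the 34 of the G1/S list, the 22 of the DREAM and quiescence list and all 16249 genes tested. The curve of the members ends left of 0, and the medians are -0.79, -0.45, -0.59, -0.12 and 0.02.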

How the data were processed

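Total RNA of GFP-sorted microglia was measured by bulk sequencing in 4 tri-culture and 4 mono-culture libraries. The authors deposited whole-number counts per gene, and the submitters' processing notes name HISAT2 2.1.0, featureCounts 2.12.3 and the build GRCh38. Annotation release and use of strand: not given in the sources used here. The authors also deposited a signal table per transcript length whose library totals ran from 0.866 to 1.14 times 1000000; its scaling is not stated.

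Counts were filtered with filterByExpr (minimum count 10, minimum total count 15), scaled with TMM factors and tested on all genes with edgeR 4.0.16 in R 4.3.3 (robust quasi-likelihood, group only). The common biological coefficient of variation was 0.206. The standard error is the absolute log2 fold change over the root of F. CPM divides by the plain library total. Each of the 37 tested members had at least 1.14 CPM in all 8 libraries (the lowest being CDC25C). Replicates differed by more than sampling noise (chi-square per degree of freedom 9.47 to 67.4), and the labels call the batches independent.

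The labels' batch numbers pair the libraries, and same-numbered libraries deviated from their groups with correlations of 0.198, 0.139, 0.263 and 0.0814. Each batch holds 1 library per group, so within a batch only values are given.

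The members, the other lists and the alternatives were chosen with earlier results of these data known. All 39 members are described. Of the other lists, the genes with the smallest adjusted p in each direction are named, up to 6 of the wider mitosis list and up to 4 of the others. Some genes that this rule or the marker lists hold are not reported here. The alternatives were other scaling, other filters, DESeq2 1.42.0, limma-trend (limma 3.58.1) on log2 of the deposited signal + 1, the batch as a block, each library left out, and pairs of batches alone. On simulated counts with the means and library sizes of this comparison, on 15998 genes, edgeR called 4 of the 50 altered by a factor of 1.5, 36 of the 50 altered by 2, 48 of the 50 altered by 4 and 45 of the 50 altered by 8, with 7 false calls. Every simulated gene had the common coefficient of variation of 0.206 and there was no batch effect, unlike the data. Altered genes that the filter dropped counted as not called.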

Additional observations from a re-analysis of the deposited data

Results flagged for a closer look

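PLK1 had 9.55 CPM in tri-culture library 1, below the other 3 tri-culture libraries at 11.1, 11.1 and 11.3 CPM, and its gap to the nearest of them was 0.886 of the range of the group, past Dixon's critical value at the 95% level for 4 samples. It was 1 of 76 groups of 4 libraries examined, and chance flags about 5% of such groups. The edgeR call of PLK1 was kept without that library.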

How the results depend on the processing

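Of the 26 members that fell, 17 passed under each of the 16 alternatives planned per gene, and 9 missed the threshold under at least 1 of them (CCNA2, CCNB2, CDK1, TTK, UBE2C, NDC80, CKAP2L, KIF11 and KIF20A). No member was called higher under any alternative run. The members that fell numbered 25 with library size scaling (10.2% of all genes tested fell) or upper quartile scaling (10.9%), 28 with no filter (5.73%) and 27 with DESeq2 (9.73%). They numbered 22 with limma-trend (10.9%), 29 with the batch as a replicate block (14.5%), and 19 to 30 when 1 library was left out (10.4% to 12.7%). In those fits the median log2 fold change of the members was -0.999 to -0.597, and 35 to 49 genes of the wider mitosis list fell; with the batch as a block 51 did. The genes of the wider list that rose numbered 0 to 1 with 1 library left out, 1 with no filter, 1 with limma-trend and 1 in batches 3 and 4 alone. In batches 1 and 2 alone, 11 members and 15 genes of the wider list fell, where 9.61% of all genes tested did. BUB1 (0.072) and MAD2L1 (0.022) had a log2 fold change above 0 there. In batches 3 and 4 alone the median of the members was -1.17. These fits have fewer libraries, and the cause was not tested. Limma-trend ended the calls of TTK, UBE2C, CKAP2L and KIF11, and fits with no filter added NUF2 and DLGAP5. The batch block added the calls of CCNB1, NUF2 and DLGAP5 and ended that of E2F5 among the genes named. Scaling by library size moved the median of all genes tested to 0.12, against 0.02 with TMM factors. The median level per length in mono-culture was 17.4 when taken as counts per kilobase of GENCODE 29 exon instead of the deposited 19.5. In the simulated counts, with 4 libraries per group and a simpler spread than the data, small changes were often missed. A member that did not pass is therefore not shown to be unchanged.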
